A study of Mus musculus with 24 samples.

Results

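A set of 10 genes of the unfolded protein and amino acid stress responses, listed by name, were followed in the epididymal white fat of 24 mice. Each of the 10 members was read by 1 probe set annotated to it, and where a gene has several, the probe set with the highest mean over the 24 arrays is the one used. They are 10 of 19938 named genes tested. All mice were wild-type C57Bl/6 males put on diet at 11 weeks of age, fed for 11 weeks on diets with 45% of energy from fat, and fasted for 4 h before the tissue was taken. The 4 groups of 6 were lard-fed conventional, lard-fed germ-free, fish oil-fed conventional and fish oil-fed germ-free mice, where the fish oil came from menhaden, conventional mice carry a microbiota and germ-free mice are raised without microbes. The labels do not say whether the conventional and germ-free mice came from one colony, so bacterial status and colony cannot be told apart. No other diet was included, so lower with lard and higher with fish oil are the same statement. Each mouse gave 1 one-colour Affymetrix array, whose values are log2 signals. Every value below is on that scale, and groups are compared only within a gene. Precision rests on the 6 arrays of a group and on 1 spread per gene pooled over the 4 groups. An SE therefore does not follow the spread of the groups it compares.

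The unfolded protein response starts in the endoplasmic reticulum (ER), where newly made membrane and secreted proteins fold. When unfolded chains build up, the sensors IRE1, PERK and ATF6 raise the supply of chaperones and of the machinery that removes misfolded proteins, and slow translation. PERK and 3 other kinases, which respond to amino acid shortage, double-stranded RNA or heme shortage, phosphorylate the translation factor eIF2alpha, and this lets the mRNA of the transcription factor ATF4 be translated; ATF4 then turns on genes of amino acid supply. Fat tissue can meet ER stress, since adipocytes and macrophages secrete proteins and take up large loads of fatty acids. Whether this fat met amino acid shortage was not measured. The splicing of Xbp1 by IRE1 and the translation of Atf4, the steps by which these regulators are switched on, are not seen in these values. Xbp1 was read by 1 probe set, whose single level does not tell spliced from unspliced mRNA. The arrays measured RNA, so the translation of Atf4 is out of their reach.

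The promoter windows of the members were searched for exact matches to textbook response elements. Windows from 250 bases before to 50 bases after the annotated start, taken from RefSeq on GRCm38.p6, were found for all 10 members and were searched on both strands for the ER stress element (CCAAT and CCACG with 9 bases of any kind between them), the shorter element ERSE-II (ATTGG and CCACG with 1 base between them), the unfolded protein response element (TGACGTGG) and the C/EBP-ATF response element read by ATF4 (TGATGNAA). The ER stress element begins with the CCAAT box, and ERSE-II begins with the reverse complement of that box. The 6 windows that held a match are shown because they tell which windows hold which element. Capitals mark the match, and each window is written 5′ to 3′ on the strand of its gene. They are Hspa5 (chr2:34771840-34772139, plus strand), Hsp90b1 (chr10:86705395-86705694, minus), Herpud1 (chr8:94386179-94386478, plus), Trib3 (chr2:152344011-152344310, minus), Asns (chr6:7693160-7693459, minus) and Chac1 (chr2:119350992-119351291, plus).
Hspa5: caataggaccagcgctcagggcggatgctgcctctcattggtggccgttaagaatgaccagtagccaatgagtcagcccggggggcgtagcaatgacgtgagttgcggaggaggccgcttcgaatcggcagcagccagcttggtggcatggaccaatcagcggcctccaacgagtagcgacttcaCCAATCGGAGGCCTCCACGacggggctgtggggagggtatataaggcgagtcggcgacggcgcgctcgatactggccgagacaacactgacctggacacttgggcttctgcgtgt
Hsp90b1: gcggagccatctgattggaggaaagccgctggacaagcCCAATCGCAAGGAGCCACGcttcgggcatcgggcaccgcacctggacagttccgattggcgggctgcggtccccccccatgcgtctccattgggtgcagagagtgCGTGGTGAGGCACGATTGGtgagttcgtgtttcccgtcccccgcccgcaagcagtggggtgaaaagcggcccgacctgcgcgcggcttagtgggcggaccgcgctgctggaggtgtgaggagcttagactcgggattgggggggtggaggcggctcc
Herpud1: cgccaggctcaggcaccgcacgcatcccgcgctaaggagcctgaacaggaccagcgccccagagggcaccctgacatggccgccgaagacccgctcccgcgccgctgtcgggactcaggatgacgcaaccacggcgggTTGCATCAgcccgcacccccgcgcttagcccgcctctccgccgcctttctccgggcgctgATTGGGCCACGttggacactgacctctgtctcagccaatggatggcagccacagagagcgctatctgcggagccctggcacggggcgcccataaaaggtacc
Trib3: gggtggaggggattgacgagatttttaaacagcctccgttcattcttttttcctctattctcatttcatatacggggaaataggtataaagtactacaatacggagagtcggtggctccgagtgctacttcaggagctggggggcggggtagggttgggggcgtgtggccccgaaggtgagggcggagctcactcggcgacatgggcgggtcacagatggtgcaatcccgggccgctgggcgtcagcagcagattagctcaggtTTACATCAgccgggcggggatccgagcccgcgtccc
Asns: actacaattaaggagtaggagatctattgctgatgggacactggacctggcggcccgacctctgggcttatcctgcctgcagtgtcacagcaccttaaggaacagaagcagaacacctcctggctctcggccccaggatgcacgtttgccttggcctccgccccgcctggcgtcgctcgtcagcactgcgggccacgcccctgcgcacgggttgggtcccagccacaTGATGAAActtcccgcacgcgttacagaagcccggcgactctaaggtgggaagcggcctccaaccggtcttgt
Chac1: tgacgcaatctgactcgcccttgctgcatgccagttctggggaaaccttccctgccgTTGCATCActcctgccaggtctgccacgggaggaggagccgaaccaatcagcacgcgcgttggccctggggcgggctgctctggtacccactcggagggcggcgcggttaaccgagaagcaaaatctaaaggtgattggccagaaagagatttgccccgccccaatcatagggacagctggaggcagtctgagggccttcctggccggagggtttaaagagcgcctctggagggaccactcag

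The full ER stress element lay in the windows of 2 members, both ER chaperone genes. In Hspa5 it spanned bases -65 to -47 from the start, and in Hsp90b1 there was 1 on the plus strand at -212 to -194 and 1 on the reverse strand at -107 to -89. Among 32851 windows of the same length, 0.119% held this element. ERSE-II was found in Herpud1, at -52 to -42, and in 0.0365% of all windows. The C/EBP-ATF element was found in 4 members, Herpud1 (-112 to -105, reverse strand), Trib3 (15 to 22, reverse strand), Asns (-23 to -16) and Chac1 (-193 to -186, reverse strand), and in 3.97% of all windows. The unfolded protein response element was in none of the 10 windows and in 0.676% of all windows. The windows of Dnajb9, Xbp1, Atf4 and Ddit3 held no match to these 4 motifs, while the CCAAT box alone was in 7 members and 37.4% of all windows. A match describes the letters of the window, not a bound site. A window without a match does not show that the gene lacks the element. Sites outside the window and sites that differ by a letter were not searched.

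The labelled tissue was checked against adipocyte genes. The mean of 10 mature adipocyte markers lay between 12.24 and 12.98 in all 24 mice, where the array medians lay between 7.09 and 7.20. These medians differed by group, at 7.17 to 7.2 in germ-free mice fed fish oil and 7.09 to 7.14 in lard-fed germ-free mice. They were 7.1 to 7.13 in fish oil-fed conventional and 7.09 to 7.18 in lard-fed conventional mice. Median centring of the arrays removes this offset, which is that of all probe sets together and need not be shared by each gene. The genes kept by a filter on low values include all 10 members. Over the genes kept, the median lard difference in germ-free mice was 0.01, against -0.08 over all named genes. For status with fish oil, centring moved the median over all named genes from -0.01 to 0.05. Cell type markers moved with both factors. The mean of 12 macrophage markers lay from 10.76 to 11.49 in lard-fed conventional mice and from 11.11 to 11.50 in lard-fed germ-free mice, against 10.16 to 10.63 in fish oil-fed conventional and 10.20 to 10.84 in germ-free mice fed fish oil. Of these 12 markers, 10 were higher and 1 lower with lard in conventional mice, and 10 were higher and 2 lower in germ-free mice. Of the 10 adipocyte markers, 9 were lower and 1 higher with lard in conventional mice, and 7 were lower and 1 higher in germ-free mice. The mean of 14 liver markers lay from 8.63 to 10.07 when fish oil was fed to germ-free mice, and from 6.62 to 8.68 in the other 3 groups together. Of those 14, 13 were lower with lard when mice were germ-free, and 12 were lower in conventional than in germ-free mice fed fish oil. The mean of 9 lipid-associated macrophage markers lay from 11.33 to 12.47 in lard-fed conventional and from 11.84 to 12.56 in lard-fed germ-free mice, against at most 11.38 in fish oil-fed conventional mice (median 10.57) and 11.39 to 11.86 in germ-free mice fed fish oil. Of these 9, 7 were higher with lard in conventional and 4 in germ-free mice, and 6 were lower in conventional than in germ-free mice fed fish oil (median -1.13), the comparison in which Hspa5, Herpud1 and Atf4 are called lower below; their part in those results was not tested. Of 8 mesothelial markers, 7 were lower with lard in conventional and 5 in germ-free mice. Of 8 progenitor and fibroblast markers, 3 were higher with lard in conventional and 6 in germ-free mice. Of 7 endothelial markers, 0 were called with lard in conventional mice and 3 were lower in germ-free mice. Among fish oil-fed mice 2 of these 7 were lower in conventional than in germ-free mice (median -0.38). Their part in the member results was not tested. Lard-fed conventional mice 5 and 6 had the highest macrophage marker means of their group (11.49 and 11.42) and the lowest adipocyte marker means (12.24 and 12.26). Lard-fed germ-free mouse 4 had an intestinal epithelium marker mean of 10.35, mouse 5 of 6.92 and mouse 2 of 6.84, against 5.76 to 6.33 in all the other mice. In RNA of a whole depot, fewer cells of a type and less RNA per cell cannot be told apart. The macrophage mean nearly separated the diets, and the liver mean nearly separated germ-free mice fed fish oil from the rest. With such a mean as a covariate, its share and that of diet or status cannot be told apart. A call lost in those fits does not assign a cause.

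Diet moved the members in opposite directions. With lard, Dnajb9, a co-chaperone of the ER, was higher than with fish oil whether or not the mice were germ-free, and Asns, which makes asparagine, was lower in both. The other 8 members differed in 1 background or in none: Hspa5 was higher with lard in conventional mice, Xbp1 was higher and Herpud1, Atf4, Ddit3 and Trib3 lower in the lard-fed germ-free group, and Hsp90b1 and Chac1 passed no test. In conventional mice 2 members were higher and 1 lower with lard (limma, adjusted p under 0.05 over all genes), against 31% of all genes called, 15.4% higher and 15.6% lower. In germ-free mice 2 were higher and 5 lower, against 47.5% of all genes called, 20.4% higher and 27.1% lower (4072 and 5396 genes, or 4808 and 3313 after median centring of the arrays). The median difference over the 10 members was 0.02 in conventional and -0.22 in germ-free mice, against -0.04 and -0.08 over all genes. The groups did not overlap for 1 member in conventional mice (14.6% of all genes) and for 2 in germ-free mice (24.5% of all genes). In conventional mice 3 of 10 members called is near the share of all genes, and in germ-free mice 7 of 10 is above it. Of those 7, Herpud1 and Trib3 lost their call after median centring (limma adjusted p = 0.197 and 0.0505), where 8121 of all genes were called. Herpud1 also lost its call in 16 of 24 fits that each left out 1 mouse. No test was made of the set as a whole.

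**Figure D1:**
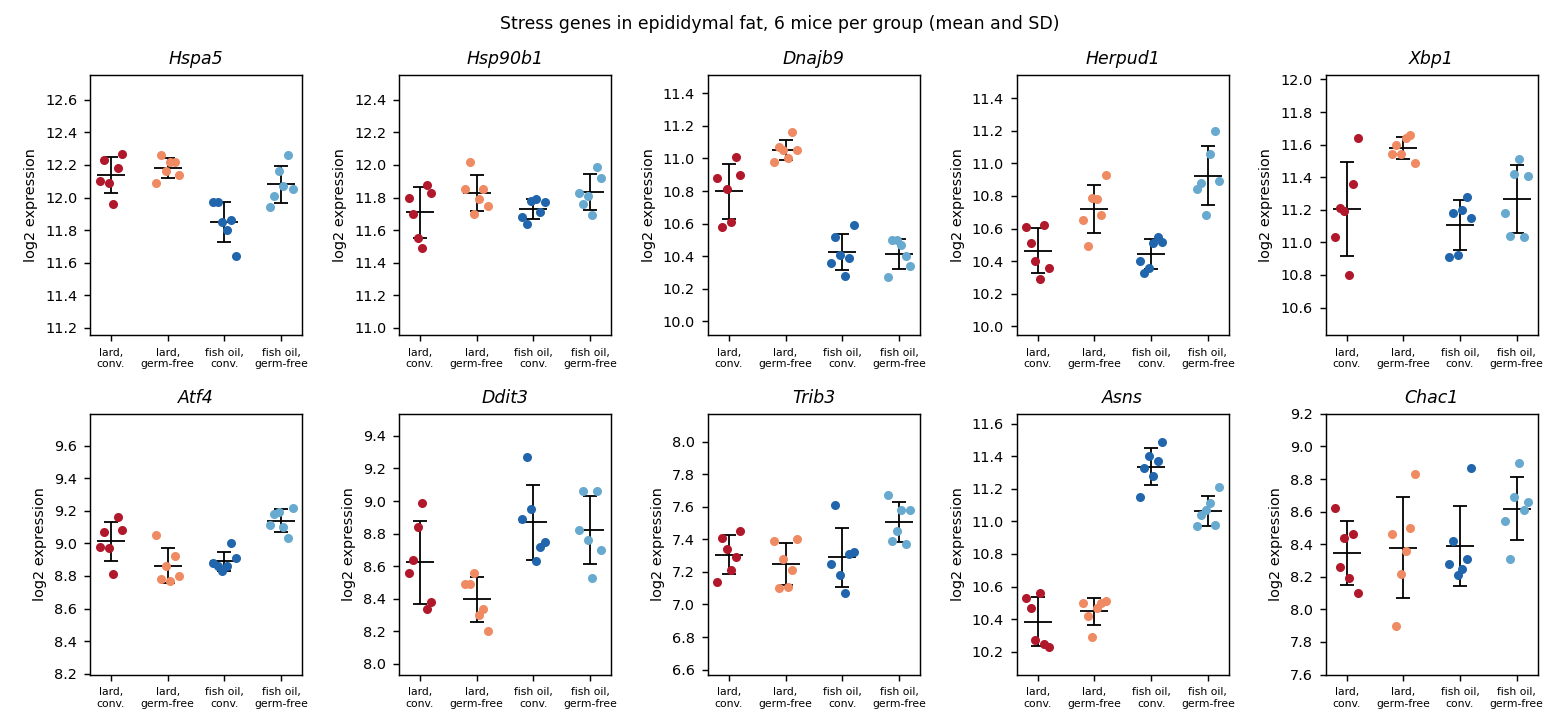
Log2 expression of the 10 members in each of the 24 mice, by group (left to right lard-fed conventional, lard-fed germ-free, fish oil-fed conventional, fish oil-fed germ-free; 6 mice each), with the mean and SD as black bars; every panel spans the same log2 range, centred on its gene. The Asns values of the 12 lard-fed mice, up to 10.56, lie below those of the 12 fish oil-fed mice, from 10.97.

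Asns encodes asparagine synthetase, the enzyme that makes asparagine from aspartate with glutamine as nitrogen donor and a standard target of ATF4; its window above holds the C/EBP-ATF element close to the start. Asns ranged from 10.23 to 10.56 in lard-fed conventional mice (median 10.37), against 11.15 to 11.49 in fish oil-fed conventional mice (median 11.35). In lard-fed germ-free mice it ranged from 10.29 to 10.51 (median 10.48), against 10.97 to 11.21 in germ-free mice fed fish oil (median 11.05). No lard-fed mouse reached the lowest fish oil-fed mouse. The difference was -0.95 ± 0.07 (SE, limma adjusted p = 1.0e-09) in conventional mice, which is 0.516 of the fish oil level, and -0.62 ± 0.07 (adjusted p = 3.8e-07) in germ-free mice, which is 0.653 of it. With the macrophage marker mean as a covariate the differences were -0.75 (adjusted p = 2.5e-04) and -0.42 (adjusted p = 0.00978). Within the fish oil diet, Asns was higher in conventional than in germ-free mice, by 0.27 ± 0.07 (adjusted p = 0.00915), and with lard the difference was -0.06 (95% interval -0.20 to 0.08, adjusted p = 0.601). The test of the difference between these status effects gave an interaction of -0.34 ± 0.10 (adjusted p = 0.0329). That call was lost when any 1 of 8 mice was left out, namely fish oil-fed conventional mice 3 and 6, fish oil-fed germ-free mice 1 and 5, lard-fed conventional mice 3 and 5, and lard-fed germ-free mice 4 and 5. The values then lay between -0.33 and -0.31, with adjusted p from 0.0506 to 0.0647. It was also lost without lard-fed conventional mice 5 and 6 (-0.27, adjusted p = 0.065), when mice 2, 4 and 5 of the lard-fed germ-free group were left out (-0.33, adjusted p = 0.176) and after repeated quantile normalization (-0.25, adjusted p = 0.116).

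Chac1 encodes an enzyme that breaks down glutathione and is another ATF4 target. It ranged from 8.10 to 8.62 in lard-fed conventional mice and from 7.90 to 8.83 in lard-fed germ-free mice, against 8.21 to 8.87 in fish oil-fed conventional and 8.31 to 8.90 in germ-free mice fed fish oil. The groups overlapped over most of their ranges, and no comparison passed the test. The lard difference was -0.04 (95% interval -0.31 to 0.23) in conventional and -0.24 (-0.51 to 0.03) in germ-free mice. Without lard-fed germ-free mouse 6 the germ-free difference passed the threshold (-0.33, limma adjusted p = 0.0323). Asns and Chac1 both carry the C/EBP-ATF element, but only the Asns difference between diets passed the test in these mice, and the difference between the 2 genes was not tested.

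The ER chaperones are the classic output of the unfolded protein response. Hspa5 encodes BiP, the main Hsp70 chaperone of the ER, which also holds the stress sensors inactive. Hspa5 ranged from 11.96 to 12.27 in lard-fed conventional mice (median 12.14), against 11.64 to 11.97 in fish oil-fed conventional mice (median 11.86). It ranged from 12.09 to 12.26 in lard-fed germ-free mice (median 12.19), against 11.94 to 12.26 in germ-free mice fed fish oil (median 12.06). The fish oil-fed conventional group was the low one, and it met the lard-fed conventional group only at its top. Hspa5 was higher with lard in conventional mice by 0.29 ± 0.06 (SE, limma adjusted p = 0.00102), a fold of 1.23, and the difference in germ-free mice was 0.10 (95% interval -0.03 to 0.23, adjusted p = 0.204). Within the fish oil diet it was lower in conventional than in germ-free mice, with a difference of -0.23 ± 0.06 (adjusted p = 0.0178). With lard the status difference was -0.04 (95% interval -0.17 to 0.09), and the interaction was 0.19 (0.01 to 0.38, adjusted p = 0.209). The lard difference in conventional mice was 0.06 (adjusted p = 0.807) with the macrophage marker mean as a covariate and 0.22 (adjusted p = 0.068) with the adipocyte marker mean. The status difference with fish oil was -0.20 (adjusted p = 0.0536) without fish oil-fed germ-free mouse 5, -0.17 (adjusted p = 0.0774) after median centring of the arrays and -0.16 (adjusted p = 0.0796) with the macrophage covariate.

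Hsp90b1 encodes GRP94, the Hsp90 chaperone of the ER, and its window holds the ER stress element at 2 places. It ranged from 11.49 to 11.88 in lard-fed conventional and from 11.70 to 12.02 in lard-fed germ-free mice, against 11.64 to 11.79 in fish oil-fed conventional and 11.69 to 11.99 in germ-free mice fed fish oil. All 4 groups overlapped. The lard difference was -0.02 (95% interval -0.16 to 0.12, limma adjusted p = 0.851) in conventional and -0.01 (-0.15 to 0.13, adjusted p = 0.924) in germ-free mice. The status difference, conventional minus germ-free, was -0.12 (-0.26 to 0.02) with lard and -0.11 (-0.25 to 0.04) with fish oil. Hspa5 and Hsp90b1 share the ER stress element, and a lard difference past the threshold was seen for Hspa5 in conventional mice and not for Hsp90b1; the difference between the genes was not tested.

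Dnajb9 encodes ERdj4, a J-domain partner of BiP that helps clear misfolded proteins and is a standard target of spliced XBP1. It ranged from 10.58 to 11.01 in lard-fed conventional mice (median 10.85), against 10.28 to 10.59 in fish oil-fed conventional mice (median 10.40). In lard-fed germ-free mice it ranged from 10.98 to 11.16 (median 11.05), against 10.27 to 10.50 in germ-free mice fed fish oil (median 10.43). The germ-free groups did not overlap, and the conventional groups overlapped only between 10.58 and 10.59. Dnajb9 was higher with lard by 0.37 ± 0.07 (SE, limma adjusted p = 2.0e-04) in conventional mice and by 0.64 ± 0.07 (adjusted p = 3.6e-07), a fold of 1.55, in germ-free mice. The germ-free difference was 0.46 (adjusted p = 0.0085) with the macrophage marker mean as a covariate, and the conventional one 0.18 (adjusted p = 0.419). Among lard-fed mice it was lower in conventional than in germ-free mice, with a difference of -0.25 ± 0.07 (adjusted p = 0.0141), and among fish oil-fed mice the difference was 0.01 (95% interval -0.13 to 0.16). The interaction was -0.26 ± 0.10 (adjusted p = 0.108), so the status effects were not shown to differ between diets. It passed the threshold without lard-fed conventional mice 5 and 6 (-0.34, adjusted p = 0.0202) and after median centring (-0.35, adjusted p = 0.0286). The status difference with lard was -0.23 (adjusted p = 0.188) when lard-fed germ-free mice 2, 4 and 5 were left out.

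**Figure D2:**
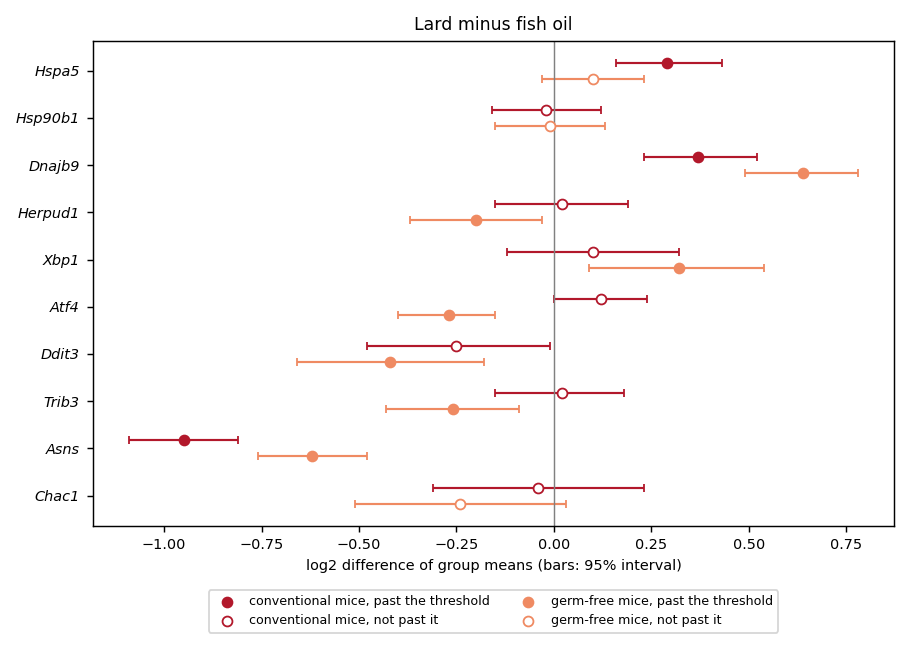
Lard minus fish oil differences of group means (x axis, log2) for the 10 members, in conventional (dark red) and germ-free (orange) mice, with 95% intervals; filled points passed the threshold of an adjusted p under 0.05. Dnajb9 lies to the right of 0 and Asns to the left in both, with -0.95 and -0.62 for Asns, and Atf4 lies on opposite sides of 0 (0.12 and -0.27).

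Herpud1 encodes a membrane protein that gathers the ER-associated degradation complex, and its window holds both ERSE-II and the C/EBP-ATF element. It ranged from 10.29 to 10.62 in lard-fed conventional mice (median 10.46) and from 10.49 to 10.93 in lard-fed germ-free mice (median 10.73). It ranged from 10.33 to 10.55 in fish oil-fed conventional mice (median 10.46) and from 10.68 to 11.20 in germ-free mice fed fish oil (median 10.89). Both conventional groups were low, and with fish oil no conventional mouse reached a germ-free one. The difference, conventional minus germ-free, was -0.48 ± 0.08 (SE, limma adjusted p = 6.7e-04) with fish oil and -0.26 ± 0.08 (adjusted p = 0.0348) with lard, and the interaction was 0.22 (95% interval -0.02 to 0.46, adjusted p = 0.269). Between diets Herpud1 was lower with lard in germ-free mice, with a difference of -0.20 ± 0.08 (limma adjusted p = 0.0478), and that in conventional mice was 0.02 (-0.15 to 0.19). The fish oil status difference was -0.41 (adjusted p = 0.0575) with the liver marker mean as a covariate. The lard status call was lost without any 1 of 6 mice (values -0.24 to -0.21, adjusted p from 0.0566 to 0.0952), namely mice 3, 4 and 6 of the lard-fed conventional group and mice 3, 4 and 6 of the lard-fed germ-free group. The diet call in germ-free mice stood just inside the threshold and was lost in 16 of 24 fits that each left out 1 mouse, the widest change being -0.15 (adjusted p = 0.138) without fish oil-fed germ-free mouse 5. It was -0.13 (adjusted p = 0.342) with mice 2, 4 and 5 of the lard-fed germ-free group left out, -0.14 (adjusted p = 0.197) after median centring, and -0.13, -0.16 and -0.14 with the liver, macrophage and adipocyte marker means as covariates (adjusted p = 0.496, 0.509 and 0.309). With only the groups compared in the fit, the diet difference in germ-free mice had an adjusted p of 0.078 and the status difference with lard of 0.0618.

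Xbp1 encodes the transcription factor that IRE1 activates by splicing its mRNA. It ranged from 10.80 to 11.64 in lard-fed conventional mice (median 11.20) and from 11.49 to 11.66 in lard-fed germ-free mice (median 11.57). It ranged from 10.91 to 11.28 in fish oil-fed conventional mice (median 11.17) and from 11.03 to 11.51 in germ-free mice fed fish oil (median 11.30). Lard-fed germ-free mice were the high group, and among lard-fed conventional mice only mouse 6, at 11.64, lay within their range. Xbp1 was higher with lard in germ-free mice by 0.32 ± 0.11 (SE, limma adjusted p = 0.0191), and the difference in conventional mice was 0.10 (95% interval -0.12 to 0.32, adjusted p = 0.542). Among lard-fed mice it was lower in conventional than in germ-free mice, with a difference of -0.38 ± 0.11 (adjusted p = 0.0172), and among fish oil-fed mice the difference was -0.16 (-0.38 to 0.06). The diet call in germ-free mice was lost without fish oil-fed germ-free mouse 5 (0.27, adjusted p = 0.0516) and with each marker mean as a covariate, where the values lay between 0.12 and 0.18 (adjusted p from 0.293 to 0.72), and it was 0.26 (adjusted p = 0.169) when lard-fed germ-free mice 2, 4 and 5 were left out. The status call with lard was lost without lard-fed conventional mouse 4 (-0.30, adjusted p = 0.057) and when lard-fed germ-free mice 2, 4 and 5 were left out (-0.32, adjusted p = 0.246).

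Atf4 encodes the transcription factor that carries the eIF2alpha branch, and it had the largest interaction of the 10 members. Atf4 ranged from 8.81 to 9.16 in lard-fed conventional mice (median 9.02), against 8.77 to 9.05 in lard-fed germ-free mice (median 8.83). It ranged from 8.83 to 9.00 in fish oil-fed conventional mice (median 8.87), against 9.03 to 9.22 in germ-free mice fed fish oil (median 9.14). With fish oil no conventional mouse reached a germ-free one, and with lard 5 of 6 conventional mice lay above the germ-free mean. The difference, conventional minus germ-free, was -0.25 ± 0.06 (SE, limma adjusted p = 0.00806) with fish oil and 0.15 ± 0.06 (adjusted p = 0.0985) with lard. The interaction was 0.40 ± 0.08 (adjusted p = 0.00695), and it kept its call when any 1 mouse was left out and was lost when lard-fed germ-free mice 2, 4 and 5 were left out together (0.36, adjusted p = 0.0784). Between diets Atf4 was lower with lard in germ-free mice, with a difference of -0.27 ± 0.06 (limma adjusted p = 6.9e-04). The difference in conventional mice was 0.12 (95% interval -0.00 to 0.24, limma adjusted p = 0.132). Without lard-fed conventional mouse 4 the last difference was 0.16 (adjusted p = 0.0307) and the lard status difference 0.19 (adjusted p = 0.0317). Without lard-fed germ-free mouse 1 the lard status difference was 0.18 (adjusted p = 0.0333).

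Ddit3 encodes CHOP, a transcription factor tied to cell death under lasting ER stress. It ranged from 8.34 to 8.99 in lard-fed conventional mice, against 8.63 to 9.27 in fish oil-fed conventional mice. In lard-fed germ-free mice it ranged from 8.20 to 8.56, against 8.53 to 9.06 in germ-free mice fed fish oil. The germ-free groups met only at their edges. Ddit3 was lower with lard in germ-free mice, with a difference of -0.42 ± 0.12 (SE, limma adjusted p = 0.00461). The difference in conventional mice was -0.25 ± 0.12 (limma adjusted p = 0.114), or -0.32 (adjusted p = 0.0324) without lard-fed conventional mouse 4. The germ-free difference was -0.40 (adjusted p = 0.0504) when lard-fed germ-free mice 2, 4 and 5 were left out, and between -0.50 and -0.34 with adjusted p from 0.0684 to 0.254 with a marker mean as a covariate. The status difference was 0.23 (95% interval -0.01 to 0.46) with lard and 0.05 (-0.19 to 0.29) with fish oil.

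Trib3 encodes a pseudokinase induced by ATF4 and CHOP that dampens insulin signalling through AKT. It ranged from 7.14 to 7.45 in lard-fed conventional mice, against 7.07 to 7.61 in fish oil-fed conventional mice, and from 7.10 to 7.40 in lard-fed germ-free mice, against 7.37 to 7.67 in germ-free mice fed fish oil. Fish oil-fed germ-free mice were the high group, and these levels lay close to the array medians. Trib3 was lower with lard in germ-free mice, with a difference of -0.26 ± 0.08 (SE, limma adjusted p = 0.0107), and the difference in conventional mice was 0.02 (95% interval -0.15 to 0.18). After median centring the germ-free difference was -0.20 (adjusted p = 0.0505), with the macrophage or adipocyte marker mean as a covariate it was -0.22 (adjusted p = 0.331) or -0.26 (adjusted p = 0.0508), and when lard-fed germ-free mice 2, 4 and 5 were left out it was -0.15 (adjusted p = 0.25). With fish oil the status difference was -0.22 ± 0.08 (adjusted p = 0.0797), and the interaction was 0.28 ± 0.11 (adjusted p = 0.146). Without fish oil-fed conventional mouse 2 these were -0.28 (adjusted p = 0.0178) and 0.34 (adjusted p = 0.0481).

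Bacterial status was compared within each diet, which asks how mice with a microbiota differ from mice without one. There, 3 members were called with lard and 4 with fish oil, all but Asns lower in conventional mice. With lard, Dnajb9, Herpud1 and Xbp1 were lower in conventional than in germ-free mice, and the other 7 did not pass the test; 16.3% of all genes were called, 7.48% lower and 8.77% higher. With fish oil, Hspa5, Herpud1 and Atf4 were lower and Asns was higher in conventional mice, against 12.4% of all genes called, 5.21% lower and 7.15% higher (1039 and 1425 genes, or 701 and 2757 after median centring). The median difference over the members was -0.05 with lard and -0.19 with fish oil, against 0.02 and -0.01 over all genes. With fish oil the groups did not overlap for 2 members, Herpud1 and Atf4 (7.03% of all genes), and with lard for none (4.15% of all genes). The comparisons share groups, so calls in several of them are not independent. In the interaction 1 member was higher (Atf4) and 1 lower (Asns), where 7.2% of all genes were called, 2.81% higher and 4.38% lower (561 and 874 genes, or 312 and 1688 after median centring). All 3 calls with lard were lost when lard-fed germ-free mice 2, 4 and 5 were left out, which leaves 3 mice in that group. The differences were then -0.23 for Dnajb9 (adjusted p = 0.188), -0.33 for Herpud1 (adjusted p = 0.0938) and -0.32 for Xbp1 (adjusted p = 0.246).

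**Figure D3:**
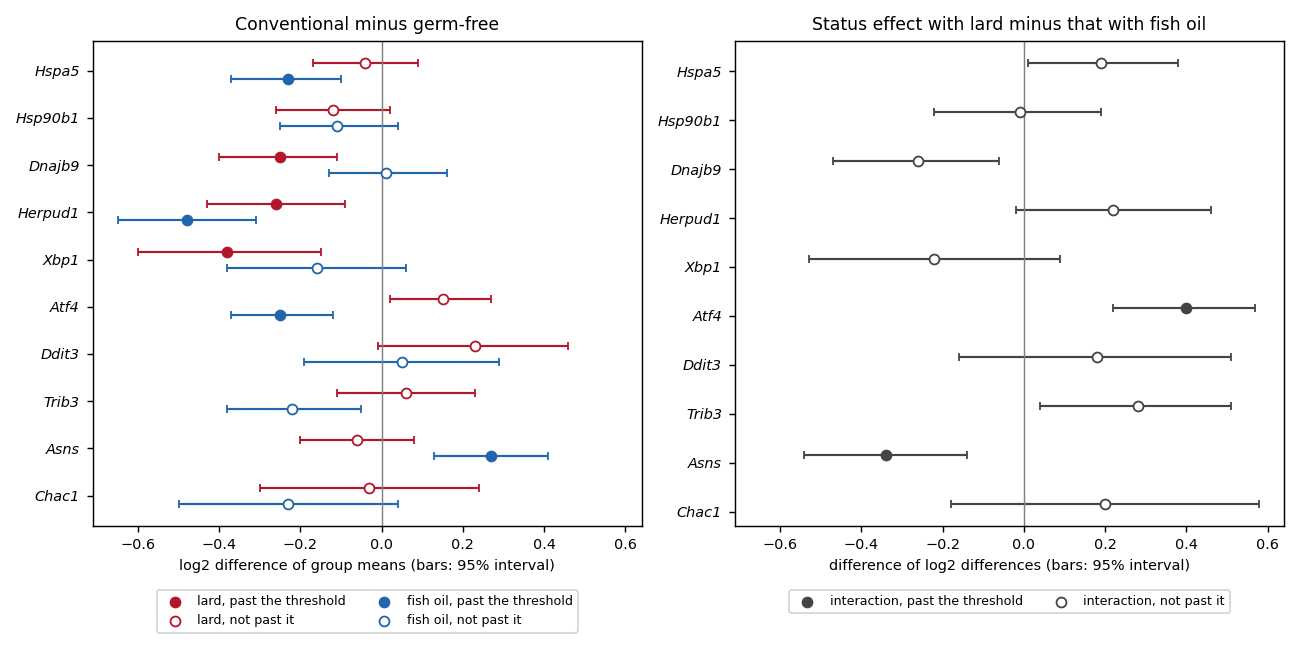
Left, conventional minus germ-free differences of group means (log2) for the 10 members with lard (red) and fish oil (blue); right, the interaction, which is the status effect with lard minus that with fish oil; bars are 95% intervals and filled points passed the threshold. Atf4 has status differences on opposite sides of 0, 0.15 with lard and -0.25 with fish oil, and the highest interaction, 0.40.

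The other genes of these pathways were taken as 7 lists. They are described by counts and medians, to be read against all genes, of which 15.4% were higher and 15.6% lower with lard in conventional and 20.4% and 27.1% in germ-free mice. No list was tested as a set, and with the macrophage marker mean as a covariate 519 and 1426 of the 19938 genes were called in place of 6178 and 9468. Of 22 ER chaperones and folding enzymes, 7 were higher and 1 lower with lard in conventional mice (median 0.14), and 13 were higher and 4 lower in germ-free mice (median 0.17). With the macrophage covariate 0 were higher and 0 lower in conventional mice, and 1 was higher and 4 lower in germ-free mice. Sdf2l1, a BiP-associated protein, was higher with lard by 1.01 ± 0.14 (SE, limma adjusted p = 6.8e-06) in conventional and by 0.51 ± 0.14 (adjusted p = 0.00493) in germ-free mice. In conventional mice Pdia5, a protein disulfide isomerase, was higher by 0.60 and Ppib, a prolyl isomerase of the ER, by 0.59. In germ-free mice Hspa13, an Hsp70 relative, was higher by 0.82 and Ero1b, an oxidase of protein disulfide isomerase, by 0.60. Fkbp2, a prolyl isomerase, ran the other way, with differences of -0.54 and -0.85. With the macrophage marker mean as a covariate the conventional differences of Sdf2l1 (0.41, adjusted p = 0.236), Pdia5 (0.37, adjusted p = 0.08), Ppib (0.40, adjusted p = 0.112) and Fkbp2 (-0.52, adjusted p = 0.19) were not past the threshold, and in germ-free mice Sdf2l1 had -0.05 (adjusted p = 0.893) and Ero1b 0.23 (adjusted p = 0.465). In germ-free mice Sdf2l1 had -0.13 (adjusted p = 0.624) with the liver and 0.28 (adjusted p = 0.177) with the adipocyte covariate, and in conventional mice Fkbp2 had -0.37 (adjusted p = 0.105) with the adipocyte covariate.

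Genes of ER-associated degradation and translocation gave 8 higher and 2 lower of 19 with lard in conventional mice (median 0.12) and 10 higher and 5 lower in germ-free mice (median 0.18). With the macrophage covariate the higher and lower counts were 1 and 0 in conventional and 4 and 1 in germ-free mice. Sec61a1, the channel of the translocon, was higher with lard by 0.46 in conventional and 0.60 in germ-free mice, and in conventional mice it had 0.25 (adjusted p = 0.24) with the macrophage marker mean as a covariate. Edem1 (0.77 ± 0.09, limma adjusted p = 9.5e-07), Edem2 (0.77) and Sel1l (0.61), which pick and pass on misfolded glycoproteins, were higher with lard in germ-free mice. The same 3 genes were lower in conventional than in germ-free mice fed lard, with Edem1 at -0.58 ± 0.09 (adjusted p = 4.1e-04), Sel1l at -0.55 and Edem2 at -0.54, and the groups did not overlap. The interaction was -0.50 ± 0.13 (adjusted p = 0.022) for Edem1 and -0.46 ± 0.12 (adjusted p = 0.023) for Edem2, and both calls were lost when lard-fed germ-free mice 2, 4 and 5 were left out (-0.37, adjusted p = 0.226, and -0.44, adjusted p = 0.142). With the liver marker mean as a covariate the Edem2 interaction was -0.55 (adjusted p = 0.0555). Of the 10 stress sensors and eIF2alpha kinases, 2 were higher and 0 lower with lard in conventional mice, and 6 were higher and 1 lower in germ-free mice (with the macrophage covariate, 0 and 0 in conventional and 2 and 0 in germ-free mice). Eif2ak1, the heme-regulated kinase, was higher with lard in germ-free mice by 0.61 ± 0.07 (adjusted p = 4.0e-07), and Mbtps1, the protease that frees ATF6, by 0.42. Their interactions were -0.58 ± 0.10 (adjusted p = 0.0011) and -0.43 ± 0.09 (adjusted p = 0.00566), the second being -0.33 (adjusted p = 0.0981) when lard-fed germ-free mice 2, 4 and 5 were left out.

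**Figure D4:**
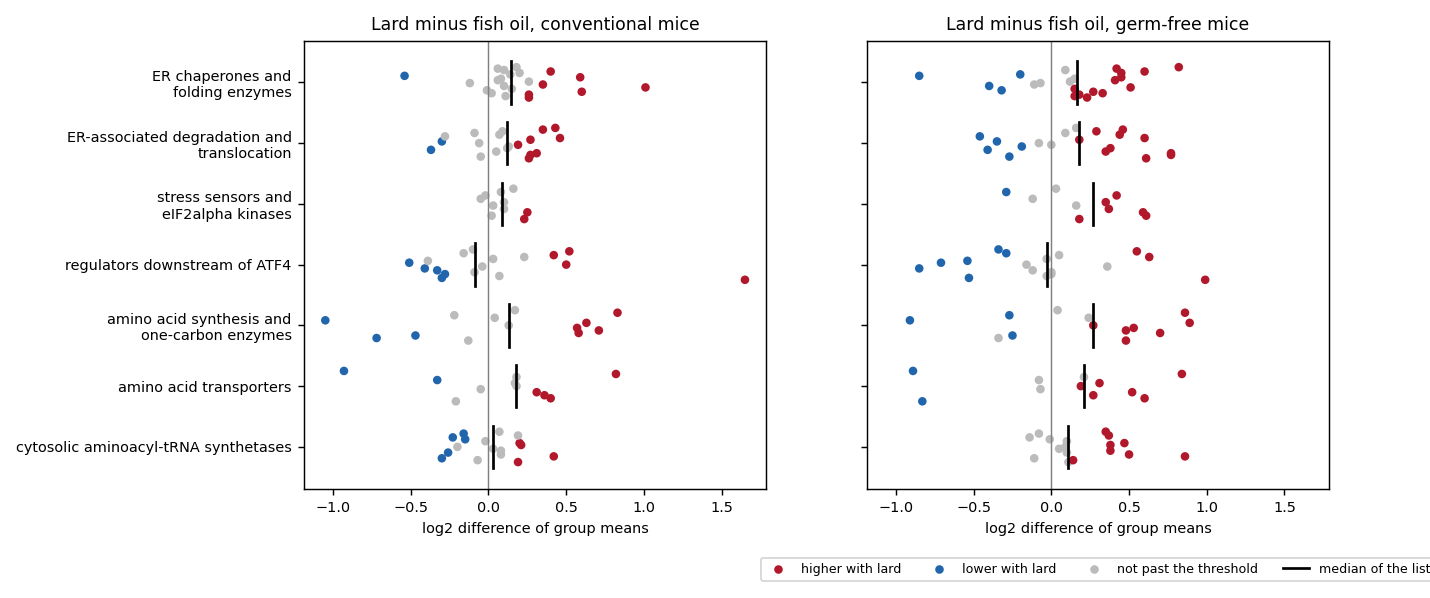
Lard minus fish oil differences (x axis, log2) of every measured gene in 7 lists of related genes, in conventional (left) and germ-free (right) mice; red and blue points passed the threshold as higher or lower with lard, grey points did not, and the black line is the median of the list. The ER chaperone list has its median at 0.14 and 0.17, and the highest point in conventional mice is Atf3 at 1.65.

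Genes downstream of ATF4 split in both directions. Of 17 measured regulators, 4 were higher and 5 lower with lard in conventional mice (median -0.09), and 3 were higher and 6 lower in germ-free mice (median -0.03). With the macrophage covariate the higher and lower counts were 1 and 0 in conventional and 2 and 0 in germ-free mice. Atf3, a stress-induced transcription factor, was higher with lard by 1.65 ± 0.24 (SE, limma adjusted p = 1.0e-05) in conventional and 0.99 ± 0.24 (adjusted p = 0.00155) in germ-free mice, and the groups did not overlap in either. With the macrophage marker mean as a covariate these were 0.47 (adjusted p = 0.377) and -0.10 (adjusted p = 0.857), and in germ-free mice Atf3 had 0.78 (adjusted p = 0.152) with the liver and 0.29 (adjusted p = 0.137) with the adipocyte covariate. Ddit4, an inhibitor of mTORC1, was higher with lard by 0.50 ± 0.08 (adjusted p = 4.2e-05) in conventional mice, and its difference in germ-free mice was -0.16 (adjusted p = 0.106). Among fish oil-fed mice Ddit4 was lower in conventional than in germ-free mice, with a difference of -0.67 ± 0.08 (limma adjusted p = 3.8e-05). Its interaction of 0.67 ± 0.12 (limma adjusted p = 0.00186) was the 1 called among the 17 regulators, where 7.2% of all genes were called. The interactions of the list had a median of 0.12 and ran from -0.40 to 0.67. Nupr1, a stress-induced chromatin protein, was lower with lard in germ-free mice (-0.85). Eif4ebp1, the translation repressor 4E-BP1, was lower with lard in conventional (-0.51) and germ-free mice (-0.71). With the macrophage marker mean as a covariate the differences of Eif4ebp1 were 0.14 (adjusted p = 0.803) and -0.11 (adjusted p = 0.777) and that of Nupr1 -0.58 (adjusted p = 0.0854); without lard-fed conventional mice 5 and 6 the conventional difference of Eif4ebp1 was -0.20 (adjusted p = 0.192). Eif4ebp1 had 0.08 (adjusted p = 0.59) in conventional mice with the adipocyte covariate and -0.68 (adjusted p = 0.0665) in germ-free mice with the liver covariate.

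Asns stood among enzymes of amino acid synthesis that did not move together. Of 13 measured enzymes of amino acid synthesis and one-carbon metabolism, 5 were higher and 3 lower with lard in conventional mice (median 0.13), and 7 were higher and 3 lower in germ-free mice (median 0.27), or 1 and 1 in conventional and 4 and 1 in germ-free mice with the macrophage covariate. Gpt2, the mitochondrial alanine aminotransferase, was lower with lard, with differences of -1.05 ± 0.11 (SE, limma adjusted p = 3.3e-07) in conventional and -0.91 ± 0.11 (adjusted p = 1.3e-06) in germ-free mice, without overlap. Phgdh, the first enzyme of serine synthesis, was lower with lard in conventional mice (-0.72), and had -0.09 (adjusted p = 0.882) with the macrophage and -0.18 (adjusted p = 0.271) with the adipocyte marker mean as a covariate. Mthfd2, of mitochondrial one-carbon metabolism, was higher with lard in conventional mice (0.71, or 0.24 with the macrophage covariate, adjusted p = 0.374), and Shmt2 (0.70) and Aldh18a1, of proline synthesis (0.89), were higher in germ-free mice. Psat1, the second enzyme of serine synthesis, had an interaction of -0.61 ± 0.12 (limma adjusted p = 0.00309). It was the 1 interaction called among the 13 enzymes, whose interactions had a median of -0.14 and ran from -0.61 to 0.23. Of 11 amino acid transporters, 4 were higher and 2 lower with lard in conventional mice (median 0.18), and 6 were higher and 2 lower in germ-free mice (median 0.21), or 0 and 1 in conventional and 0 and 1 in germ-free mice with the macrophage covariate. Slc43a1, a transporter of neutral amino acids, was lower (-0.93 and -0.89), and Slc7a5, the light chain of the LAT1 transporter, was higher (0.40 and 0.60). With the macrophage marker mean as a covariate Slc43a1 had -0.25 (adjusted p = 0.712) and -0.26 (adjusted p = 0.589), and Slc7a5 0.07 (adjusted p = 0.874) and 0.30 (adjusted p = 0.197). With the liver marker mean the germ-free values were -0.21 (adjusted p = 0.582) for Slc43a1 and 0.29 (adjusted p = 0.152) for Slc7a5, and with the adipocyte marker mean Slc7a5 had 0.35 (adjusted p = 0.0645) in conventional mice. Of 17 cytosolic aminoacyl-tRNA synthetases, which load tRNAs and include ATF4 targets, 4 were higher and 5 lower with lard in conventional mice (median 0.03), and 8 were higher and 0 lower in germ-free mice (median 0.11), or 0 and 0 in conventional and 2 and 0 in germ-free mice with the macrophage covariate. Iars, of isoleucine, was higher with lard by 0.42 in conventional and 0.86 in germ-free mice, and the conventional value was -0.00 (adjusted p = 0.991) with the macrophage and 0.21 (adjusted p = 0.204) with the adipocyte covariate. With fish oil 7 synthetases were higher and 0 lower in conventional than in germ-free mice (all genes 7.15% and 5.21%), Hars by 0.35 and Farsb by 0.30. The count called lay between 0 (at least 1.5-fold) and 11 (median centring) over the alternatives, and was 3 with the liver covariate. With that covariate Hars had 0.30 (adjusted p = 0.0894) and Farsb 0.26 (adjusted p = 0.0718).

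**Figure D5:**
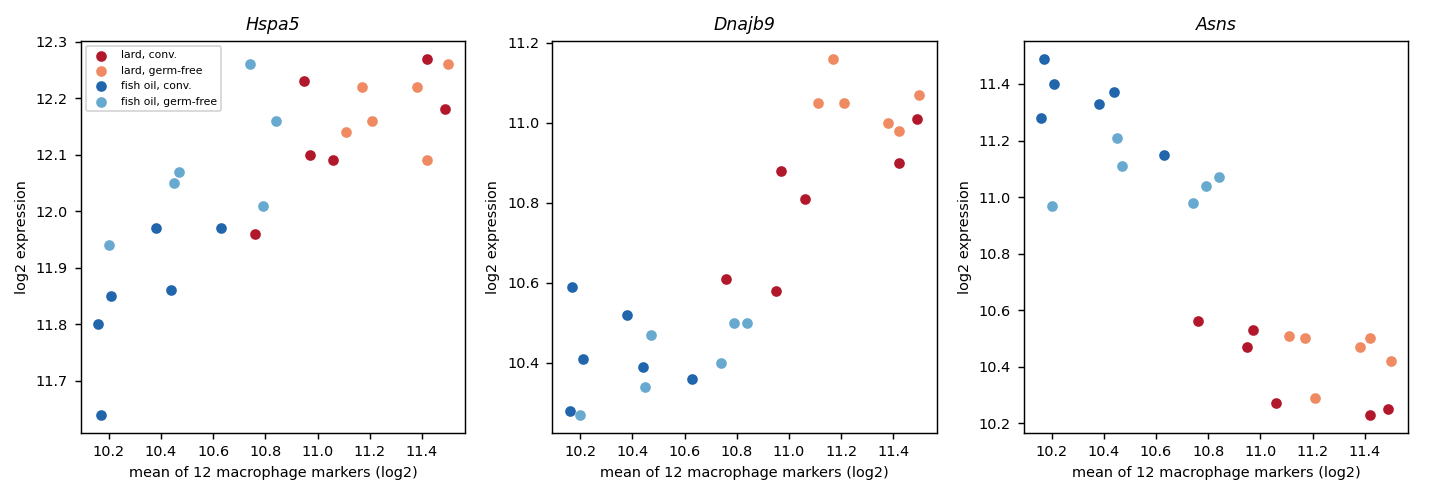
Log2 expression of Hspa5, Dnajb9 and Asns (y axes) against the mean of 12 macrophage markers (x axis, log2), 1 point per mouse, coloured by group. The lard-fed groups lie at 10.76 and above on the x axis and the fish oil-fed groups at 10.84 and below, so macrophage markers and diet differ together; the y axes do not start at 0.

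Whether members rose and fell together from mouse to mouse was examined in deviations from the group means, which leave out the group differences. Over 24 mice, Pearson correlations of the 45 pairs lay between -0.65 and 0.53. The lowest was between Xbp1 and Ddit3 (r = -0.65, permutation p = 0.00339, adjusted p = 0.153; Spearman rho = -0.71, adjusted p = 0.0405), and r was -0.53 without the 2 mice farthest from the median. After Benjamini-Hochberg adjustment over the 45 pairs, 0 passed by Pearson and 1, Xbp1 with Ddit3, by Spearman, while 4 pairs had an unadjusted Pearson p under 0.05. The other 3 were Xbp1 with Atf4 (r = 0.53, permutation p = 0.0165), Herpud1 with Chac1 (r = 0.51, permutation p = 0.0153) and Hspa5 with Asns (r = -0.46, permutation p = 0.046). All values come from one platform and one joint normalization. Without the 5 lard-fed mice that stood apart, 0 pairs passed by Pearson, and Xbp1 with Ddit3 no longer passed by Spearman (rho = -0.56, adjusted p = 0.457).

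For each member, the 2 genes with the most similar deviations over the 24 mice were picked from all tested genes. For Asns they were Pon3, a lactonase (r = 0.82), and Nrg4, a growth factor secreted by fat (r = 0.79). For Hspa5 they were Nek6 and Actb (r = 0.80 each), and for Dnajb9 Ifi208 (r = 0.71) and Ceacam16 (r = 0.69). Hsp90b1 was nearest to Uhrf2 (r = 0.89) and Rnmt (r = 0.88), and Herpud1 to Pramel5 and Mrpl38 (r = 0.71 each). Xbp1 was nearest to Gatd1 (r = 0.86) and Norad (r = 0.78), and Atf4 to Naa20 (r = 0.78) and Trim8 (r = 0.77). Ddit3 was nearest to Leng1 (r = 0.80) and Ptrhd1 (r = 0.79), Trib3 to Igsf11 (r = 0.81) and Gm15998 (r = 0.77), and Chac1 to Zfp459 (r = 0.78) and Dhrs7b (r = 0.77). These are the highest of 19937 correlations for each member and are given as a description.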

How the data were processed

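RNA of the epididymal fat of 24 mice, 6 in each of 4 groups taken from the labels, was measured on one-colour Affymetrix arrays from 250 ng of total RNA each. The deposited log2 values were, per the submitters' processing notes, summarised with RMA, which corrects background, equalises the distributions of the arrays and combines the probes of a probe set; the version used is not given in the sources used here. No scan date or batch is named in them, so none was tested. Values lay between 2.19 and 14.59, and 0 pairs of arrays were identical. The array medians of the deposited values still differed by group, as given above.

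Probe sets with 1 symbol in the platform annotation (21789 of 35556) were named, with symbols updated through Entrez IDs for 21698 of them in a GRCm38.p6 gene table. The probe set with the highest mean stood for a gene, which gave 19938 genes. limma 3.58.1 under R 4.3.3 (lmFit, eBayes) fitted the 4 group means to all arrays, and every adjusted p of a gene in the text is limma's, two-sided, with Benjamini-Hochberg adjustment over the 19938 genes and a threshold of 0.05. The replicates are separate mice. The fit was tested on simulated data. Correlations between mice used 100000 permutations within groups.

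The members and lists were chosen with earlier results of these data known. Named genes were the 10 members, up to 4 genes of each list and comparison with the largest change past the threshold (not all are named), and the 2 genes nearest to each member. Marker lists of adipocytes, macrophages, lipid-associated macrophages, mesothelium, progenitors and fibroblasts, endothelium, liver and intestinal epithelium were also used. Lists of B and plasma cells, T cells, pancreatic acinar cells, epididymal epithelium and red blood cells were counted but are not described. Alternatives were median centring, repeated quantile normalization, a filter on genes under the 40th percentile, the mean of probe sets, array weights, a trended and robust prior, fits restricted to the groups compared, a replicate block, leaving out mice, marker means as covariates and a 1.5-fold threshold. Promoters are RefSeq's.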

Additional observations from a re-analysis of the deposited data

Results flagged for a closer look

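For Atf4 the interaction (status difference with lard minus status difference with fish oil) was 0.40 (limma adjusted p = 0.00695), a difference between the diets that passed its own test, with a status difference of 0.15 with lard and -0.25 with fish oil. For Asns the interaction was -0.34 (limma adjusted p = 0.0329), with a status difference of -0.06 with lard and 0.27 with fish oil.

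Chac1 was 8.87 in fish oil-fed conventional mouse 6, far above the other 5 mice of its group, with a gap to the nearest of them of 0.670 of the group's range, where 0.625 is the critical value for 6 samples. It was the 1 such value among 40 groups of values examined (10 members in 4 groups), where chance alone gives about 1 in 20.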

How the results depend on the processing

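Counts of members past the threshold were 3 and 7 for diet in conventional and germ-free mice, 3 and 4 for status with lard and fish oil, and 2 for the interaction. Leaving out each mouse in turn gave 3 to 5, 5 to 8, 2 to 4, 3 to 5 and 1 to 3. Requiring at least a 1.5-fold change left 1, 2, 0, 0 and 0. With the macrophage marker mean as a covariate the diet counts were 1 and 3. With the liver or the adipocyte marker mean the diet count in germ-free mice was 4 or 3. When lard-fed germ-free mice 2, 4 and 5 were left out, 3 members passed for diet in germ-free mice, 0 for status with lard and 0 for the interaction by limma. Repeated quantile normalization left 1 interaction. Mouse numbers are not stated to pair the mice, and deviations of mice with the same number correlated between -0.50 and 0.35; with the mouse number as a replicate block the interaction count was 1 (Asns -0.34, adjusted p = 0.0547). Beside single left-out mice, alternatives brought 6 uncalled member values past the threshold: the Dnajb9 interaction under 3 (-0.35 to -0.34), the Hspa5 interaction (0.39, adjusted p = 0.0469, liver covariate), Atf4 for status with lard (0.18, adjusted p = 0.0416, macrophage covariate) and Ddit3 for status with lard (0.36, adjusted p = 0.0276, without lard-fed conventional mice 5 and 6). The cause of these changes was not tested.

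No called member difference changed sign under the alternatives run; the following uncalled ones, near 0, did. For diet in conventional mice, Herpud1 had -0.00 and Trib3 -0.01 after median centring, Trib3 -0.01 after repeated quantile normalization, Xbp1 -0.05 and Trib3 -0.02 without lard-fed conventional mice 5 and 6, Xbp1 -0.11, Atf4 -0.01 and Chac1 0.19 with the macrophage covariate, and Xbp1 -0.07 and Chac1 0.13 with the adipocyte covariate. For diet in germ-free mice, Hsp90b1 had 0.05 after centring and 0.12 with the liver covariate, and Hspa5 -0.08 with the liver and -0.11 with the macrophage covariate. For status with lard, Asns had 0.01 and Chac1 0.00 without lard-fed conventional mice 5 and 6, Hspa5 0.01 and Trib3 -0.05 without the 3 germ-free mice named above, and Hspa5 0.02 with the macrophage covariate. For status with fish oil, Dnajb9 had -0.04 after repeated quantile normalization, and Hsp90b1 0.01 and Ddit3 -0.02 with the liver covariate. The Hsp90b1 interaction was 0.03 after repeated quantile normalization, 0.00 with array weights and 0.05 without the 3 germ-free mice. Leaving out single mice turned Hsp90b1 (-0.06 to 0.02), Herpud1 (-0.01 to 0.06), Trib3 (-0.03 to 0.08) and Chac1 (-0.10 to 0.05) for diet in conventional mice, Hsp90b1 (-0.05 to 0.02) for diet in germ-free mice, Chac1 (-0.13 to 0.06) for status with lard, Dnajb9 (-0.02 to 0.04) and Ddit3 (-0.03 to 0.10) for status with fish oil, and the Hsp90b1 interaction (-0.05 to 0.03). Among the related genes, differences that were called as reported did change sign, in 11 cases. With the macrophage covariate and diet in conventional mice, Sec11c had -0.20, Eif2ak2 -0.07, Bcl2l11 -0.03, Eif4ebp1 0.14, Got1 -0.04 and Iars -0.00. In germ-free mice Sdf2l1 had -0.05 and Atf3 -0.10 with the same covariate. With the adipocyte covariate Sec11c had -0.02 and Eif4ebp1 0.08 in conventional mice, and with the liver covariate Sdf2l1 had -0.13 in germ-free mice.

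Counts over all genes moved by over 1.5 times too. For diet, 6178 and 9468 genes became 519 and 1426 with the macrophage covariate, 3231 and 5245 with the adipocyte covariate and 1627 and 1985 at 1.5-fold, and the 9468 became 5278 when the 3 germ-free mice were left out and 5232 with the liver covariate. For status with lard, 3240 became 5033 with array weights, 5079 without lard-fed conventional mice 5 and 6, 177 without the 3 germ-free mice and 294 at 1.5-fold, and with fish oil 2464 became 361 at 1.5-fold. The 1435 interactions became 225 without the 3 germ-free mice, 385 at 1.5-fold, 2526 with array weights, 2652 with the adipocyte covariate, 2710 without lard-fed conventional mice 5 and 6, and 909, 861 and 925 without fish oil-fed conventional mouse 3, lard-fed conventional mouse 3 and lard-fed germ-free mouse 4.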
